A study of Mus musculus with 18 samples.

Results

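Cyclic nucleotide phosphodiesterases were measured in the left ventricle of mice given isoproterenol with minocycline, isoproterenol alone, or saline. The 10 genes were taken from a list of names: Pde1a, Pde1c, Pde2a, Pde3a, Pde3b, Pde4a, Pde4b, Pde4d, Pde5a and Pde7a. They were matched in the gene name column of the count table, as 11 gene models of 48709, because Pde2a is split over 2 overlapping models. All 11 passed the filter on low counts, which kept 13281 genes in all.

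Each of the 3 groups had 6 libraries of polyadenylated RNA from wild type male C57BL/6J mice aged 12 weeks. The first group (isoproterenol and minocycline) received isoproterenol, an agonist of β-adrenergic receptors, at 30 mg/kg/day from an implanted osmotic pump, together with minocycline, a tetracycline antibiotic, at 50 mg/kg injected into the peritoneum every day. The second group (isoproterenol) received the same pump dose with saline injections, and the third (control) received saline by both routes. Hearts were collected after 21 days, and no group with minocycline alone was used here. The protocol text speaks of pooled RNA, so a library may hold more than 1 animal, and p-values here reflect library-to-library spread.

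Cells make cAMP and cGMP with adenylyl and guanylyl cyclases, and phosphodiesterases are the enzymes that break them down. In heart muscle, β-adrenergic receptors raise cAMP, which through protein kinase A speeds and strengthens the beat, and phosphodiesterases limit how far and how long that signal spreads. The families differ in substrate and control. PDE1 enzymes are switched on by calcium and calmodulin and cleave both nucleotides. PDE2 is stimulated by cGMP, PDE3 is inhibited by it and is the target of milrinone, PDE4 and PDE7 are specific for cAMP, and PDE5, the target of sildenafil, is specific for cGMP.

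Libraries held 14203041 to 22688664 counts, of which 40.1 to 47.7% fell on mitochondrially encoded genes. All 10 cardiomyocyte markers were detected, and their summed level was 56356 to 68673 CPM (counts scaled to a library total of 1000000) in isoproterenol-plus-minocycline hearts and 58038 to 63538 CPM in isoproterenol hearts, against 68443 to 76775 CPM in control hearts. Myl7, an atrial light chain gene, was above 80 CPM in 4 libraries, namely isoproterenol and minocycline 2, isoproterenol 5, and control 5 and 6. Calls for the phosphodiesterases and the other named pathway genes, but not for the cell type markers, were repeated without these libraries. Those that ended there were Akap7, Crem and Nos2 after isoproterenol. With both drugs they were Adcy6, Akap1, Akap5, Akap13, Nos2, Pde11a, Pik3cg, Prkaca and Rapgef4. That fit held fewer libraries. Calls over all genes fell there from 1669 to 681 after isoproterenol and from 2557 to 1369 with both drugs. After isoproterenol the log2 fold changes without these libraries were -0.22 for Akap7, 0.63 for Crem and -0.51 for Nos2. With all 18 libraries they were -0.31, 0.56 and -0.52. In bulk tissue, fewer cells of a type and less RNA per cell cannot be told apart.

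Per transcript length, the gene models with the highest phosphodiesterase levels in control hearts were the larger Pde2a model, Pde7a and Pde4a. The place of Pde2a is uncertain, because GENCODE M21 names the larger model Gm45837 and gives the name Pde2a to the smaller one, and because the larger model overlaps Arap1 on the same strand. The larger model averaged 12.8 ± 1.14 TPM (deposited values, scaled for length and to a total of 1000000), Pde7a 10.2 ± 1.83 TPM and Pde4a 9.70 ± 0.83 TPM (SD, n = 6 each). Pde7a overlapped both of the others, so it could stand first, second or last among these 3. Among the listed genes Pde3a, the main PDE3 of heart muscle, came next at 5.66 ± 0.65 TPM, with no control library overlapping Pde4a above it or Pde4b below it. Pde4b held 2.86 ± 0.49 TPM, Pde1c 2.27 ± 0.29 TPM and the smaller Pde2a model 2.22 ± 1.14 TPM. Pde1a, Pde4d and Pde3b averaged 1.26 ± 0.18, 1.07 ± 0.19 and 0.804 ± 0.16 TPM in control hearts. Pde5a was the lowest of the listed genes at 0.526 ± 0.095 TPM. From Pde4b down, each listed gene overlapped the next listed one in the order.

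**Figure D1:**
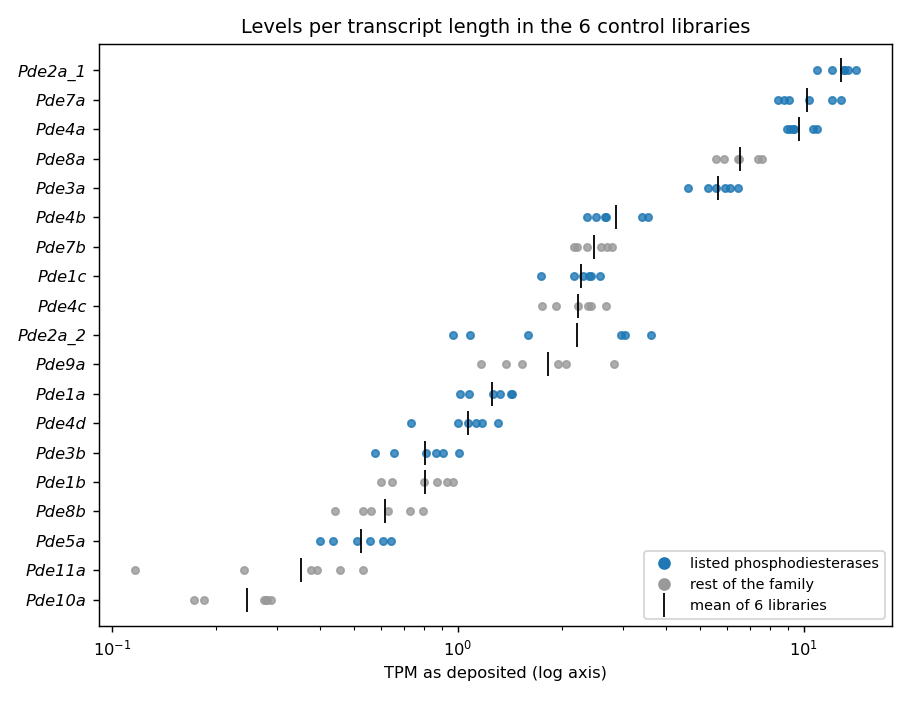
Levels of phosphodiesterase transcripts in the 6 control libraries, in TPM as deposited on a log axis, with 1 point per library and a bar at the mean. The listed genes span Pde2a_1 at 12.8 TPM to Pde5a at 0.526 TPM, and Pde8a of the rest of the family lies between Pde4a and Pde3a.

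Summed over the listed genes, phosphodiesterase transcripts held 52.7 ± 4.84 TPM in isoproterenol-plus-minocycline hearts and 55.7 ± 3.82 TPM in isoproterenol hearts, against 49.4 ± 2.91 TPM in control hearts. The 3 PDE4 genes made up 29.7 ± 1.67%, 33.0 ± 2.39% and 27.6 ± 2.47% of that sum in the same groups. The PDE7 gene made up 16.6 ± 1.91% in isoproterenol-plus-minocycline hearts and 16.7 ± 1.72% in isoproterenol hearts, against 20.7 ± 2.95% in control hearts. The PDE1 genes held 9.38 ± 1.14%, 8.11 ± 0.727% and 7.16 ± 0.637% in isoproterenol-plus-minocycline, isoproterenol and control hearts. These sums and shares are descriptions of the deposited TPM, and no test was made on them. TPM and CPM are scaled differently and can differ in direction between groups. The larger Pde2a model, for example, averaged 12.95 TPM in isoproterenol hearts and 12.78 TPM in control hearts, but 49.55 and 55.14 CPM. A sum in CPM was not made, so a change of the family as a whole cannot be read from these values.

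Isoproterenol alone raised 1 of the 11 gene models, Pde4b, and none fell. Across all genes tested, 12.6% were called in this comparison at an adjusted p under 0.05 (Benjamini-Hochberg over the genes tested), and 6.94% were called as higher. The members' count is thus near the background. In none of the 11 did the libraries of the groups separate fully, which they did in 6.9% of all genes. Their log2 fold changes were above 0 for 8 models and below 0 for 3, with a median of 0.15, beside a median of 0.0011 over all genes.

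Pde4b encodes a cAMP-specific enzyme whose transcription is known to be induced by cAMP in several cell types. It lies at chr4:102087543-102607259 on the plus strand in the deposited coordinates, which are those of GRCm38, with the identifier ENSMUSG00000028525. Its lowest, median and highest library held 21.4, 30.8 and 31.8 CPM in isoproterenol hearts, against 16.8, 20.1 and 25.5 CPM in control hearts. Of the isoproterenol libraries 5 lay above every control library, and isoproterenol 3 was the low one that fell inside the control range. Means were 29.0 ± 4.01 CPM in isoproterenol hearts and 21.0 ± 3.34 CPM in control hearts (SD, n = 6 each), from 430 to 646 and 338 to 426 counts. The log2 fold change was 0.47 (SE 0.10, 95% interval 0.26 to 0.68, 1.38-fold), with an adjusted p of 0.00459 by edgeR's quasi-likelihood test. All 6 isoproterenol libraries lay above the control mean. Pde4b took 21.3 ± 2.34% of the summed TPM of the PDE4 genes, Pde4c included, in isoproterenol hearts and 17.96 ± 1.61% in control hearts.

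The call for Pde4b held in all 23 alternative settings, with log2 fold changes of 0.41 to 0.54 and adjusted p of 4.37e-04 to 0.0203 across edgeR, DESeq2 and limma-voom. Without the 4 libraries high in Myl7 it was 0.53, with the highest of these adjusted p. Cardiomyocyte markers were lower in isoproterenol hearts in 4 of 10 cases and higher in none. Their summed level differed by -0.28 on the log2 scale (exact 2-sided permutation p = 0.00217, adjusted over 24 marker tests 0.0130). Myh6, 1 of the 4, held a large part of the mean sum, at 23340 of 59655 CPM in isoproterenol hearts and 29930 of 72613 CPM in control hearts. Fibroblast markers were higher in 5 of 10 cases, macrophage markers in 7 of 10 and smooth muscle and pericyte markers in 3 of 10. The fibroblast markers summed to 1234.5 to 1728 CPM in isoproterenol hearts, against 845 to 1206 CPM in control hearts, and the macrophage markers to 308 to 429.9 CPM, against 216 to 271 CPM. The part of these differences in the Pde4b result was not tested.

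RefSeq (GRCm38.p6) lists 4 start sites of Pde4b among its promoter windows, each running from 250 bases before to 50 bases after a start. The window shown is the only one of them with the core of a cAMP response element (TGACG on either strand, to which CREB and CREM bind). It is chr4:102421305-102421604 on the plus strand, inside the gene, and capitals mark the core, which reads CGTCA on the gene's strand.
Pde4b: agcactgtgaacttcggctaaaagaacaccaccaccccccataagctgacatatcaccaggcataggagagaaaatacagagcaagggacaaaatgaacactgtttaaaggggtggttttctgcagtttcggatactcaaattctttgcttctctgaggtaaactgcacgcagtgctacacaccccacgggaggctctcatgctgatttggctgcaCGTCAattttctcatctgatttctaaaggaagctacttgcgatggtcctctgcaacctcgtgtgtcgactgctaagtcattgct
Counted from the annotated start, the core begins at position -34. Promoter windows were given for 7 of the 10 genes, 21 windows in all. The core occurs in 4 of these 21, each of a different gene (Pde1a, Pde2a, Pde4a and Pde4b), and in 20.8% of all 32851 windows of that length. The full element TGACGTCA, which contains the core, occurs in 0 of the 21 and in 1.79% of all windows. Counts per gene do not show which start site was used.

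The other PDE4 genes did not pass the test after isoproterenol. Pde4a, the most abundant of them, held 54.0, 57.8 and 63.0 CPM in isoproterenol hearts, against 48.3, 50.6 and 57.4 CPM in control hearts (lowest, median and highest library). The groups overlapped, although all 6 isoproterenol libraries were above the control mean. Its log2 fold change was 0.17 (SE 0.079, edgeR adjusted p = 0.165). Pde4d, whose enzyme associates with the ryanodine receptor and with β-adrenergic receptors in heart muscle, ranged from 7.01 to 15.7 CPM in isoproterenol hearts and from 5.92 to 10.3 CPM in control hearts. At 0.33 (SE 0.25, edgeR adjusted p = 0.418) its log2 fold change had an interval of -0.19 to 0.84.

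Pde7a, a further cAMP-specific enzyme, held 37.0, 46.2 and 49.4 CPM in isoproterenol hearts, against 46.3, 50.2 and 71.2 CPM in control hearts. Control 3 and 4 were far above the other libraries, and the ranges overlapped. All 6 isoproterenol libraries lay below the control mean. The log2 fold change of -0.33 (SE 0.13) did not pass the threshold (edgeR adjusted p = 0.0987).

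The PDE3 genes encode the cGMP-inhibited enzymes. Pde3a held 41.4, 53.5 and 70.2 CPM in isoproterenol hearts, against 39.6, 50.6 and 58.3 CPM in control hearts. Its log2 fold change was 0.15 (SE 0.19, edgeR adjusted p = 0.656), and the groups overlapped over most of their range. Pde3b, which is also the insulin-regulated phosphodiesterase of fat cells, averaged 4.72 ± 0.929 CPM in isoproterenol hearts and 3.85 ± 0.73 CPM in control hearts, with a log2 fold change of 0.28 (SE 0.15, edgeR adjusted p = 0.230).

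Of the calmodulin-dependent enzymes, Pde1a held 5.10, 7.18 and 8.55 CPM in isoproterenol hearts, against 4.31, 5.42 and 6.11 CPM in control hearts. Isoproterenol 4 and 6 lay within the control range and the other 4 above it. The log2 fold change of 0.38 (SE 0.14) had an edgeR adjusted p of 0.0777, and passed the threshold without isoproterenol 4 (0.0385) and with an atrial covariate, the mean of 3 atrial markers (0.0405). Pde1c had a higher mean TPM than Pde1a in isoproterenol and control hearts, but not with both drugs (2.38 against 2.55 TPM). Pde1c averaged 32.8 ± 4.97 CPM in isoproterenol hearts and 31.8 ± 4.92 CPM in control hearts. The interval of its log2 fold change of 0.047 was -0.27 to 0.36.

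Pde2a and Pde5a, which act on cGMP, were not called either. The deposited table gives both models the name Pde2a, while M21 names the larger one (ENSMUSG00000030653) Gm45837 and only the smaller one (ENSMUSG00000110195) Pde2a. Both cover the same stretch of chromosome 7 on the same strand, so reads may belong to either model and their split is uncertain. The larger model, at chr7:101410886-101512819, also overlaps Arap1, which held 43.0% as many counts. With the 2 models summed, Pde2a averaged 53.8 ± 8.18 CPM in isoproterenol hearts and 61.7 ± 4.42 CPM in control hearts. Taken alone, the larger model had a log2 fold change of -0.15 (SE 0.10, edgeR adjusted p = 0.346) and the smaller one -0.61 (SE 0.45, edgeR adjusted p = 0.403). Pde5a averaged 3.59 ± 0.783 CPM in isoproterenol hearts and 3.60 ± 0.65 CPM in control hearts, from at most 103 counts per library. Its log2 fold change of 0.0054 had an interval of -0.31 to 0.32.

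**Figure D2:**
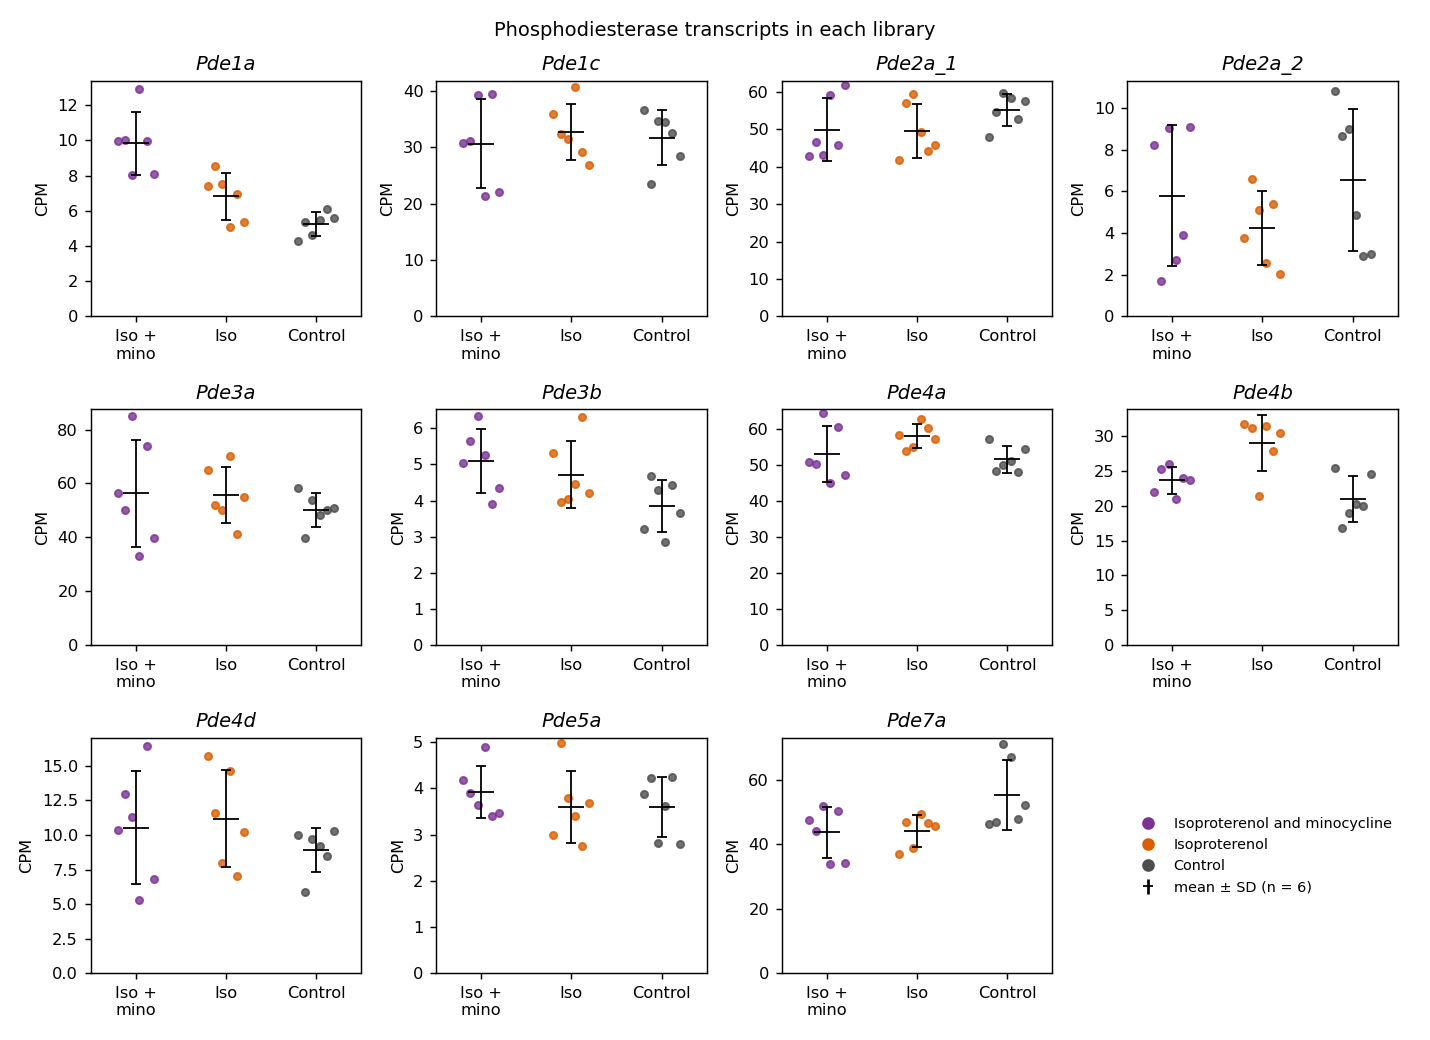
Level of each phosphodiesterase gene model in every library, in CPM on axes that start at 0, with 1 point per library and bars for the mean ± SD (n = 6). Pde1a is highest in the isoproterenol and minocycline libraries (8.02 to 12.9 CPM), all above the control libraries, and Pde4b is highest in 5 of the 6 isoproterenol libraries.

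Adding minocycline to isoproterenol called 0 of the 11 models by edgeR's quasi-likelihood test, and 0 by DESeq2 and by limma-voom. In all, 7 genes were called, which is 0.0527% of those tested. At an unadjusted p under 0.05, 2 models differed, Pde1a and Pde4b, where 7.60% of all genes did. The members' median log2 fold change was 0.0092, beside -0.0026 over all genes, with 6 models above 0 and 5 below. These libraries of isoproterenol alone are also the ones set against control, so the comparisons are not independent.

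For Pde1a, the lowest, median and highest library held 8.02, 9.95 and 12.9 CPM in isoproterenol-plus-minocycline hearts, against 5.10, 7.18 and 8.55 CPM in isoproterenol hearts. The groups overlapped only between 8.02 and 8.55 CPM. The log2 fold change was 0.52 (SE 0.13, interval 0.25 to 0.80), with an unadjusted p of 7.38e-04 and an adjusted p of 0.273 by edgeR. For Pde4b, the values were 20.98, 23.9 and 26.0 CPM in isoproterenol-plus-minocycline hearts, against 21.4, 30.8 and 31.8 CPM in isoproterenol hearts. The highest isoproterenol-plus-minocycline library was below 5 of the isoproterenol ones and above isoproterenol 3. The log2 fold change was -0.29 (SE 0.10, interval -0.50 to -0.08), with an unadjusted p of 0.00922 and an adjusted p of 0.503 by edgeR.

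The remaining 9 models had log2 fold changes of -0.13 for Pde4a to 0.44 for the smaller Pde2a model, with edgeR adjusted p of 0.727 or more. The interval was -0.29 to 0.036 for Pde4a, -0.38 to 0.42 for Pde3a and -0.28 to 0.25 for Pde7a. The spread within the group was wide in isoproterenol-plus-minocycline hearts for some of them. Pde3a, for example, held 56.3 ± 19.95 CPM there, against 55.6 ± 10.5 CPM in isoproterenol hearts.

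**Figure D3:**
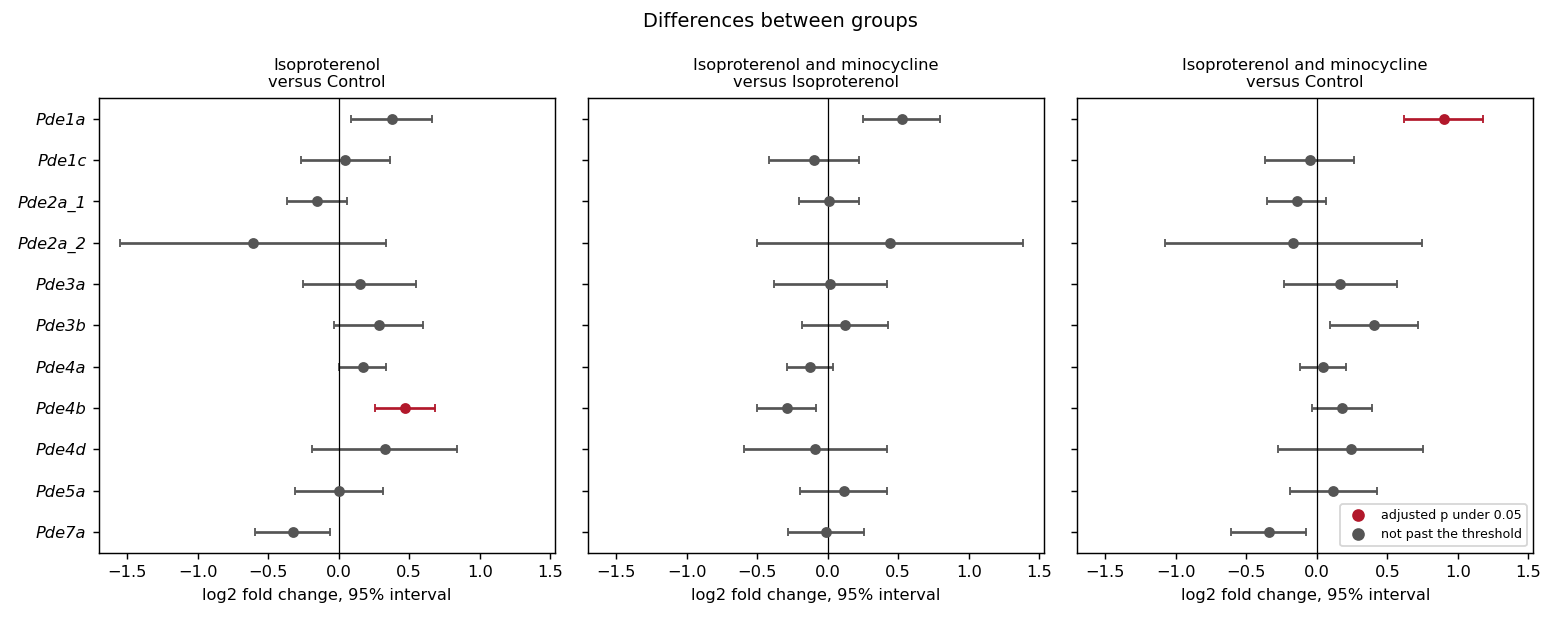
Log2 fold change of each phosphodiesterase gene model in the 3 comparisons, with 95% intervals from the edgeR fit of 18 libraries. Red points have an adjusted p under 0.05, which holds for Pde4b at 0.47 in isoproterenol versus control and for Pde1a at 0.90 in both drugs versus control.

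With both drugs, 1 of the 11 models was called against control, Pde1a, and it was higher. Over all genes, 19.3% were called in this comparison and 10.2% as higher. With only 11 models, 1 call (9.09%) cannot be placed above or below these shares. The median log2 fold change of the members was 0.12, beside 0.0035 over all genes, with 7 above 0 and 4 below.

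Pde1a encodes a calcium- and calmodulin-dependent enzyme that prefers cGMP. It lies on the minus strand at chr2:79834453-80129458 (ENSMUSG00000059173). Its libraries held 8.02 to 12.9 CPM in isoproterenol-plus-minocycline hearts, against 4.31 to 6.11 CPM in control hearts, from 163 to 238 and 70 to 127 counts. The groups did not overlap, which held with the first group above for 3.55% of all genes. Means were 9.83 ± 1.79 CPM in isoproterenol-plus-minocycline hearts and 5.25 ± 0.66 CPM in control hearts. The log2 fold change was 0.90 (SE 0.14, interval 0.62 to 1.18, 1.87-fold), with an edgeR adjusted p of 1.03e-04, and the call held in all 23 alternative settings with 0.81 to 0.99. Fibroblast markers were higher in 9 of 10 cases in the same comparison, macrophage markers in 7 of 10, and smooth muscle and pericyte markers in 4 of 10, while cardiomyocyte markers were lower in 5 of 10. The fibroblast markers summed to 1149 to 1942 CPM in isoproterenol-plus-minocycline hearts, against 845 to 1206 CPM in control hearts. The smooth muscle and pericyte markers summed to 1014 to 1284 CPM in isoproterenol-plus-minocycline hearts, against 866 to 1024 CPM in control hearts, and the macrophage markers to 289.96 to 483 CPM, against 216 to 271 CPM. The part of these markers in the Pde1a result was not tested.

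RefSeq gives 4 promoter windows for Pde1a. The one with the core is chr2:80038853-80039152 on the minus strand, inside the gene, with the core in capitals. It is shown beside that of Pde4b because these are the 2 members called in either drug group against control.
Pde1a: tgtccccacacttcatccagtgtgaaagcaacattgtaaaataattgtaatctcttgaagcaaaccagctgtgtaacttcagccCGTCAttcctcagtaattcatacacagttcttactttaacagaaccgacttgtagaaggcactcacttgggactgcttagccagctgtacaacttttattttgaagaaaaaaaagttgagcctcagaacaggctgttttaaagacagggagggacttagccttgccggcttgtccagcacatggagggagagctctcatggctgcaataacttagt
Here the core begins at position -166.

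Pde4b itself held 20.98 to 26.0 CPM in isoproterenol-plus-minocycline hearts and 16.8 to 25.5 CPM in control hearts. At 0.18 (SE 0.10, interval -0.036 to 0.39) its log2 fold change was not past the threshold (edgeR adjusted p = 0.239). Pde7a held 33.9, 45.9 and 52.05 CPM in isoproterenol-plus-minocycline hearts, against 46.3, 50.2 and 71.2 CPM in control hearts, with all 6 below the control mean. Its log2 fold change was -0.34 (SE 0.13, edgeR adjusted p = 0.0667), and it was called by DESeq2 (adjusted p = 0.0447). Pde3b averaged 5.10 ± 0.878 CPM in isoproterenol-plus-minocycline hearts and 3.85 ± 0.73 CPM in control hearts, with a log2 fold change of 0.41 (SE 0.15, edgeR adjusted p = 0.0594; DESeq2 adjusted p = 0.0462). Both genes were thus near the threshold, on opposite sides of 0.

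The other 7 models had edgeR adjusted p of 0.337 or more with both drugs. Pde4a and Pde1c were closest to 0, at log2 fold changes of 0.042 (interval -0.12 to 0.21) and -0.051 (interval -0.37 to 0.27). The larger Pde2a model had -0.14 and Pde5a 0.12.

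The rest of the family comprised 11 further genes, of which 1 was called after isoproterenol alone (median log2 fold change 0.23) and 1 with both drugs (median 0.16). Over all genes, the shares called were 12.6% and 19.3%. Of the 11, 8 were tested, while Pde6a, Pde6b and Pde6c, the photoreceptor enzymes, held 4, 0 and 1 counts over all 18 libraries. After isoproterenol alone Pde8a, a cAMP-specific enzyme of high affinity, rose to 21.8 ± 1.86 CPM, against 18.4 ± 1.92 CPM in control hearts (log2 fold change 0.25, SE 0.078, edgeR adjusted p = 0.0437). That call ended in 10 of 23 alternative settings, with adjusted p up to 0.109. With both drugs Pde11a, which cleaves both nucleotides, fell to 0.592 ± 0.29 CPM, against 1.28 ± 0.569 CPM in control hearts (log2 fold change -1.11, SE 0.38, edgeR adjusted p = 0.0452), a call that ended in 11 of 23 settings. Pde7b, the second PDE7 gene, had a log2 fold change of 0.35 (edgeR adjusted p = 0.0930) after isoproterenol alone and of -0.49 (unadjusted p = 0.00148, adjusted p = 0.328) with minocycline added. It averaged 11.2 ± 2.79 CPM in isoproterenol-plus-minocycline hearts, 15.8 ± 2.11 CPM in isoproterenol hearts and 12.4 ± 1.16 CPM in control hearts.

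Among the genes that make cAMP, 2 of 9 tested were lower after isoproterenol, where 5.62% of all genes were, and none was higher. Adcy6, with Adcy5 a main adenylyl cyclase of heart muscle, fell to 142 ± 13.3 CPM in isoproterenol hearts, against 179.7 ± 10.7 CPM in control hearts, without overlap (log2 fold change -0.34, SE 0.072, edgeR adjusted p = 0.00313). Adcy1 fell to 0.482 ± 0.29 CPM, against 1.39 ± 0.403 CPM in control hearts (-1.50, SE 0.34, edgeR adjusted p = 0.00601). With both drugs the same 2 of 9 were lower, where 9.05% of all genes were, Adcy6 by -0.21 (edgeR adjusted p = 0.0427) and Adcy1 by -1.45 (edgeR adjusted p = 0.00449), and the Adcy6 call ended in 10 of 23 settings. The median log2 fold change of the 9 genes was 0.073 after isoproterenol and 0.17 with both drugs.

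Of the genes that make cGMP or the nitric oxide that starts it, 1 of 6 tested was lower after isoproterenol and 2 with both drugs, with median log2 fold changes of -0.025 and 0.024. Over all genes, 5.62% were lower after isoproterenol and 9.05% with both drugs. Nos2, inducible nitric oxide synthase, held 5.73 ± 1.37 CPM in isoproterenol hearts and 8.23 ± 0.866 CPM in control hearts (log2 fold change -0.52, edgeR adjusted p = 0.0465), and this call ended in 14 of 23 settings. With both drugs it held 5.28 ± 1.52 CPM (-0.63, edgeR adjusted p = 0.0122; 0.0787 without the 4 libraries high in Myl7). Npr2, the guanylyl cyclase receptor of C-type natriuretic peptide, held 40.5 ± 2.23 CPM with both drugs and 47.7 ± 2.11 CPM in control hearts, without overlap (-0.24, edgeR adjusted p = 0.00383).

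Of 15 tested effectors, 0 were called after isoproterenol by edgeR's quasi-likelihood test, DESeq2 or limma-voom, and 3 had an unadjusted edgeR p under 0.05. By edgeR, 12.6% of all genes were called in this comparison. The smallest p values were those of Prkaca, the catalytic subunit of protein kinase A (log2 fold change -0.19, edgeR adjusted p = 0.0937), and Bves, a cAMP-binding membrane protein (0.19, edgeR adjusted p = 0.121). With both drugs 3 of 15 were lower, where 9.05% of all genes were. The call for Rapgef4, 1 of these 3, ended without the 4 libraries high in Myl7 (edgeR adjusted p = 0.1025). The medians of the log2 fold changes were 0.022 after isoproterenol and 0.027 with both drugs. Hcn2, a pacemaker channel gated by cAMP, fell to 6.72 ± 1.06 CPM in isoproterenol-plus-minocycline hearts, against 11.4 ± 1.58 CPM in control hearts, without overlap (-0.76, SE 0.12, edgeR adjusted p = 1.39e-04). Prkaca held 146 ± 20.2 CPM with both drugs and 176 ± 8.66 CPM in control hearts (-0.27, edgeR adjusted p = 0.0131), a call lost without the 4 libraries high in Myl7 (edgeR adjusted p = 0.0784).

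Proteins that bind, anchor or control phosphodiesterases gave 2 higher and 1 lower gene of 22 after isoproterenol, and 4 higher and 3 lower with both drugs, with median log2 fold changes of 0.079 and 0.084. Over all genes, 6.94% were higher and 5.62% lower after isoproterenol, and 10.2% and 9.05% with both drugs. With both drugs, the calls for Akap1, Akap5, Akap13 and Pik3cg ended without the 4 libraries high in Myl7 (edgeR adjusted p = 0.0658, 0.1025, 0.122 and 0.132). Calm2, a gene for calmodulin, which activates PDE1, rose to 111.5 ± 3.05 CPM in isoproterenol hearts and 119 ± 3.07 CPM in isoproterenol-plus-minocycline hearts, against 82.7 ± 11.9 CPM in control hearts. Its log2 fold changes were 0.43 (SE 0.069, edgeR adjusted p = 3.03e-04) and 0.53 (SE 0.069, edgeR adjusted p = 2.38e-05), without overlap in either case. Crem, a cAMP-responsive transcription factor that also gives the repressor ICER, rose to 8.52 ± 1.32 CPM in isoproterenol hearts, against 5.80 ± 1.59 CPM in control hearts (0.56, edgeR adjusted p = 0.0373), a call that ended in 9 of 23 settings. Akap7, an anchor of protein kinase A, fell to 15.1 ± 1.62 CPM, against 18.7 ± 1.80 CPM in control hearts (-0.31, edgeR adjusted p = 0.0176; 0.199 without the 4 libraries high in Myl7), and to 14.6 ± 1.33 CPM with both drugs (-0.36, edgeR adjusted p = 0.00434). With minocycline added to isoproterenol, 0 of the 60 tested genes of these 4 lists and the rest of the family were called by edgeR or limma-voom and 1 by DESeq2 (Hcn2), while 7 had an unadjusted edgeR p under 0.05. Over all genes, edgeR called 0.0527%, and 7.60% had an unadjusted edgeR p under 0.05.

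Single libraries also differed from their own group in a way that several phosphodiesterases shared. For each gene, the deviation of log2-CPM from the group mean was set against the same deviation of the summed cardiomyocyte markers or fibroblast markers over 18 libraries, 22 relations in all. Pde3a followed the cardiomyocyte markers most closely, with r = 0.90 and rho = 0.90 (permutation p = 7e-05 for r and 4e-05 for rho, adjusted 0.00154 and 8.8e-04). Within groups r was 0.96 in isoproterenol-plus-minocycline, 0.77 in isoproterenol and 0.75 in control libraries (n = 6 each), and 0.85 over the libraries without the 2 farthest. Pde4a gave r = 0.86 and rho = 0.82 (permutation p = 2e-04 and 2.4e-04, adjusted 0.00154 and 0.00264), and r = 0.80 without the 2 farthest. Its r was 0.925 in isoproterenol-plus-minocycline, 0.65 in isoproterenol and 0.72 in control libraries. Pde1c gave r = 0.82 and rho = 0.78 (permutation p = 8.2e-04 and 0.00158, adjusted 0.00451 and 0.00869), and r = 0.74 without them, with 0.95, 0.83 and 0.42 in isoproterenol-plus-minocycline, isoproterenol and control libraries. Pde4d gave r = 0.71 and rho = 0.70 (permutation p = 0.00537 and 0.00555, adjusted 0.0185 and 0.0203), and r = 0.73 without them, with 0.76, 0.55 and 0.89 in the same order of groups. The libraries share a total of CPM, so one part that grows makes the others smaller. The share of all genes with such relations was not determined, so they cannot be read as particular to phosphodiesterases.

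The same 4 genes ran against markers of several other cell types. With the fibroblast markers they gave r of -0.84 for Pde3a, -0.75 for Pde1c, -0.70 for Pde4d and -0.68 for Pde4a (permutation p adjusted over 22 relations 0.00154, 0.0133, 0.0185 and 0.0438). For Pde4d rho was -0.61, with an adjusted permutation p of 0.0599. For Pde4a r was -0.81 in isoproterenol-plus-minocycline, -0.23 in isoproterenol and -0.56 in control libraries. As a description, r was -0.84 for Pde3a, -0.76 for Pde4d, -0.70 for Pde1c and -0.67 for Pde4a with the macrophage markers. With the smooth muscle and pericyte markers it was -0.80 for Pde4d, -0.70 for Pde1c, -0.69 for Pde3a and -0.59 for Pde4a. With the endothelial markers it was -0.69 for Pde1c, -0.59 for Pde3a, -0.58 for Pde4d and -0.58 for Pde4a. Over these 4 genes r was -0.53 to -0.34 with adipocyte, -0.45 to -0.28 with atrial and -0.30 to -0.077 with lymphocyte markers. Pde7a leaned the same way without passing the test, at r = 0.58 with cardiomyocyte and -0.57 with fibroblast markers (adjusted permutation p = 0.0638 each). Its r with the cardiomyocyte markers was 0.96 in isoproterenol-plus-minocycline, 0.13 in isoproterenol and 0.13 in control libraries, and 0.42 without the 2 farthest. With the fibroblast markers it was -0.83, -0.25 and -0.38 in the same order of groups, and -0.55 without the 2 farthest. As a description, its r was -0.80 with the endothelial and -0.73 with the smooth muscle and pericyte markers. The genes called between groups did not pass the test in these relations. Pde4b gave r = 0.39 with the cardiomyocyte markers (rho = 0.42, adjusted permutation p = 0.108 and 0.124) and -0.46 with the fibroblast markers (0.0638). Pde1a gave -0.33 (rho = -0.39, adjusted permutation p = 0.272 and 0.159) and 0.37 (0.219). Among the members themselves, Pde1c and Pde3a moved most closely together within groups (r = 0.895, a description over 18 libraries), followed by Pde3a and Pde4d at 0.85.

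**Figure D4:**
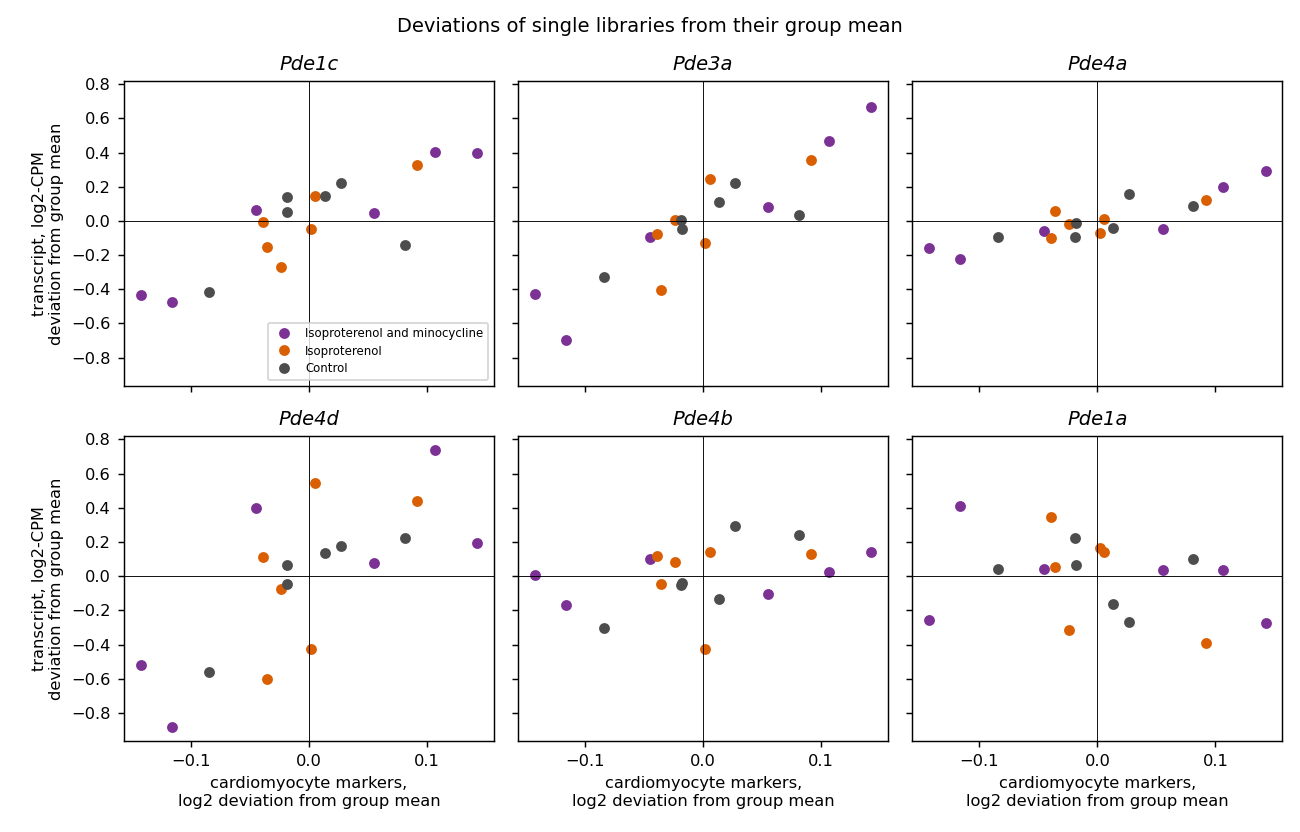
Deviation of 6 phosphodiesterase transcripts from their group mean (log2-CPM, vertical axis) against the deviation of the summed cardiomyocyte markers (log2, horizontal axis), with 1 point per library coloured by group. Pde1c, Pde3a, Pde4a and Pde4d run upward (r from 0.71 to 0.90), while Pde4b has r = 0.39 and Pde1a r = -0.33.

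Across 12244 genes of at least 1 CPM on average, the 2 genes most like each member in their deviations from group means were found by Pearson correlation over the 18 libraries, as a description. Limch1 and Fsd2 were most like Pde3a (r = 0.97 each). Prkar2a, a regulatory subunit of protein kinase A, and Coa5 were most like Pde4d (r = 0.95 each). Ppara, a nuclear receptor of fatty acid metabolism, and Slc8a1, the cardiac sodium-calcium exchanger, were most like Pde1c (r = 0.93 and 0.92). Hdac11 and Fam134b were most like Pde7a (r = 0.94 and 0.91), and Dnajb1 and the desmosomal gene Dsc2 most like Pde4a (r = 0.89 each). Cdk12 and Prdm2 were most like Pde4b (r = 0.88 and 0.87), while Hic1 and Spock2 were most like Pde1a (r = 0.875 and 0.86). Akap8 and Atl3 were most like Pde5a (r = 0.88 each). The highest values for Pde3b, 0.82 with 1110051M20Rik and 0.78 with Rab6b, and for the smaller Pde2a model, 0.76 with Fdxacb1 and with 3110062M04Rik, were lower, and the larger Pde2a model was most like Stx8 and Lims2 (r = 0.85 each).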

How the data were processed

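Paired reads of 150 bases were trimmed (quality limit 0.05) and analysed in CLC Genomics Workbench 21.0.3, per the labels' protocols. Per the submitters' processing notes edgeR was also used, in an unstated role. Which genome build, annotation and strand setting served is not given in the sources used here. All 11 gene models have the same start and end in GENCODE M21 (GRCm38), where 10 carry the same name and the larger Pde2a model is named Gm45837. The authors deposited counts per gene and TPM values, and columns were matched by the number in each sample's description, although the titles carry a different number.

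The test was that of edgeR 4.0.16 (R 4.3.3): filterByExpr, TMM, robust glmQLFit and glmQLFTest in a single fit of 18 libraries, with Benjamini-Hochberg adjustment over 13281 genes and a threshold of 0.05. The biological coefficient of variation was 13.2%. CPM use TMM-scaled library sizes, and log2-CPM a prior count of 2. Deposited TPM served for levels between genes and for sums and shares described by group, and not for tests. Marker sums were compared by exact permutation over 924 regroupings on log2(CPM + 1), and deviations by 100000 permutations within groups. The fit was also run on counts simulated from this table's own means and dispersions, without differences in cell composition between libraries. Its outcome is not given here.

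The 10 genes and all lists were chosen with earlier results of these data known. From each list, up to 4 called genes with the smallest p after isoproterenol and up to 2 in the other comparisons are named. Further genes called with both drugs are named where the call ended without the 4 libraries high in Myl7. Of list symbols, 136 of 136 matched. Alternatives were DESeq2 1.42.0, limma-voom (limma 3.58.1), other scalings and filters, the 12 libraries compared, an atrial covariate, leaving out libraries and, added after seeing the data, summed Pde2a models.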

Additional observations from a re-analysis of the deposited data

How the results depend on the processing

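Of 756 alternative values for single members, 709 kept direction and side of the threshold, 11 passed it and 36 changed sign, all of the last uncalled. Sign changes with minocycline added to isoproterenol were Pde2a_1 at -0.011, Pde4d at 0.0043 and Pde7a at 0.012 with the atrial covariate, Pde3a at -0.038 by limma-voom, and Pde3a at -0.019 and Pde7a at 0.0033 without the 4 libraries high in Myl7. Leaving out single libraries gave in that comparison -0.062 to 0.068 for Pde2a_1, -0.14 to 0.13 for Pde3a, -0.25 to 0.047 for Pde4d and -0.070 to 0.050 for Pde7a; with both drugs against control -0.13 to 0.033 for Pde1c, -0.35 to 0.038 for Pde2a_2 and -0.022 to 0.085 for Pde4a; and after isoproterenol -0.027 to 0.10 for Pde1c and -0.11 to 0.071 for Pde5a. Members called with both drugs numbered 3 by DESeq2 (Pde1a, Pde3b, Pde7a) and 1 to 3 with single libraries left out (Pde7a or Pde3b joining without control 1 or 2 or isoproterenol-plus-minocycline 3 or 5). After isoproterenol they numbered 2 with the atrial covariate (Pde1a added), 2 in the fit of the 12 libraries compared (Pde4a added) and 1 to 2 with single libraries left out. Genes called over the whole table numbered 1369 with both drugs and 681 after isoproterenol without the libraries high in Myl7, and 1079 to 1673 after isoproterenol with single libraries left out (1079 without control 4). With minocycline added they numbered 37 by DESeq2, 2 in the 12 libraries, 1 without the libraries high in Myl7 and 1 to 13 with single libraries left out. DESeq2 called 5 of 22 partners after isoproterenol, against 3 by edgeR, and 5 of 15 effectors with both drugs, against 3. The cause of these shifts was not tested. No paired analysis was possible because the groups share no replicate numbers in the labels. The lowest members had 34 to 192 counts per library (Pde2a_2) and 44 to 103 (Pde5a).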
